A study of Solanum lycopersicum with 8 samples.

Results

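Transcripts of the tomato glucanase GluB and the chitinases CHI9 and CHI3 were followed in the peel of mature green fruit (Solanum lycopersicum) of 4 genotypes. The members were the probe sets whose symbol or synonym in the array's gene annotation is CHI3, CHI9 or GluB, which gave 3 probe sets, 1 per gene, of 10209 on the array. All 3 passed the filter on low values. The genotypes were the double mutant homozygous for both Aft and atv, the atv (atroviolacea) mutant, the Aft (Anthocyanin fruit) mutant and the wild type. All plants stood in a heated greenhouse over winter, at no less than 12 °C, and none was treated. By the labels, double mutant fruit was strongly pigmented and Aft fruit carried spots of anthocyanin, while atv and wild type fruit held no significant amount. The labels name a cultivar, Ailsa Craig, for the wild type only, so a difference in line background would go with genotype in every comparison. Each genotype had 2 biological replicates on 1 Affymetrix Tomato Genome Array each, 8 arrays in all, a number that limits the precision.

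Chitinases cut chitin, a polymer of fungal cell walls, and glucanases such as GluB cut the beta-glucans found beside it. Plants make both as pathogenesis-related proteins, so called because infection induces them, and the basic forms are stored in the vacuole while acidic forms are secreted. In tomato GluB is a basic glucanase and CHI9 a basic chitinase, whereas CHI3 and CHI17 are acidic, extracellular chitinases. Ethylene, wounding and pathogens are known to induce the basic forms.

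Median intensity ran from 514.5 to 755.4 over the arrays. Across probe sets, r between the replicates of a genotype was 0.977 to 0.988. Mean r with the wild type was 0.947 for the double mutant, 0.904 for the atv mutant, whose arrays were the least like it, and 0.964 for the Aft mutant. The mean log2 excess of 3' over 5' signal in 5 control genes, a sign of RNA quality, was 1.68 and 1.54 on the atv mutant arrays and lay between 1.22 and 1.91 on the other 6. The anthocyanin enzyme gene DFR averaged 13.34 on the log2 scale in the double mutant, 7.70 in the atv mutant and 10.67 in the Aft mutant. In the wild type it averaged 2.02, from intensities of 1.9 and 9.4, near background. The anthocyanin genes CHS1 and CHS2 were highest in the atv mutant, at 13.38 and 14.07. CHS1 averaged 13.10 in the double mutant, 10.66 in the Aft mutant and 7.68 in the wild type, and CHS2 averaged 13.63, 13.36 and 13.88 there. On the deposited scale, without quantile normalization, the median difference over all probe sets moved to -0.13 for the double mutant against the wild type, against 0.04, and to -0.13 for the double mutant against the atv mutant, against 0.10. The share of calls that were higher moved with it, to 39.6% from 56.3% in the first, to 31% from 56.2% in the second, to 60.9% from 46.7% for the atv mutant against the wild type, and to 31.1% from 51.7% for the interaction of Aft and atv. Measured from those medians, GluB in the atv mutant against the wild type was at -6.87, or -6.68 on the deposited scale, CHI9 at -4.17 or -4.10, and double mutant CHI3 against the wild type at -1.95.

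GluB was high in 3 genotypes and low in the atv mutant. Its deposited intensity was 7977.5 and 6366 in double mutant peel, 110.8 and 124.4 in atv mutant peel, 8834 and 11157.5 in Aft mutant peel, and then 12936.9 and 12175.3 in wild type peel. On the quantile-normalized log2 scale used for all tests, it averaged 12.89 ± 0.08 in the double mutant, 6.64 ± 0.39 in the atv mutant, 13.26 ± 0.12 in the Aft mutant and 13.62 ± 0.02 in the wild type (SD, n = 2 each). Both atv mutant arrays lay far below every other array. In atv mutant peel GluB fell by 6.98 log2 units against wild type peel (SE 0.19, limma adjusted p = 2.9e-05), a 126-fold difference with a 95% interval of 90.8 to 175-fold. Only 4 of the 9493 probe sets tested fell by more in that comparison. The atv mutant values lay near the lower quartile of their arrays, 154.1 and 118.2, and the table carries no detection call, so the size of the fold depends on how background was removed. As this is bulk tissue, fewer cells making GluB and less of its RNA per cell cannot be told apart, here and in every result that follows.

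The double mutant is also homozygous for atv, and its GluB level was 6.24 log2 units above that of the atv mutant (SE 0.19, adjusted p = 2.8e-05), or 75.8-fold. Of the 9493 probe sets, 4 others had a larger rise in this comparison. Against the wild type the double mutant was at -0.73, with a 95% interval of -1.21 to -0.26, which missed the threshold (adjusted p = 0.061). Both double mutant arrays were below both wild type arrays. Its call depended on the settings: the adjusted p was 0.013 without either one of the atv mutant arrays and 0.012 without both, and with all arrays it was 0.048 with a floor of 16 and 0.016 with an intensity trend and robust prior. The Aft mutant did not pass the test against the wild type (-0.36, interval -0.83 to 0.12, adjusted p = 0.44), nor did the double mutant against the Aft mutant (-0.38, interval -0.85 to 0.10, adjusted p = 0.28). The order of GluB levels was wild type, Aft mutant, double mutant and atv mutant, in which the last step alone passed the test between neighbours.

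CHI9 had the same low group. Its deposited intensity was 12908.6 and 12634.6 in the double mutant, 683.2 and 737.2 in the atv mutant, 12375.1 and 13894.8 for Aft mutant fruit, and 13211.8 and 12306.3 in the wild type. The double mutant, Aft mutant and wild type arrays overlapped, and both atv mutant arrays lay below all of them. In atv mutant peel CHI9 fell by 4.28 log2 units against wild type peel (SE 0.14, adjusted p = 3.1e-05), or 19.4-fold with a 95% interval of 15.3 to 24.6-fold. It stood 4.29 higher in the double mutant than in the atv mutant (SE 0.14, adjusted p = 3.0e-05).

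CHI9 averaged 13.66 ± 0.05 in the double mutant, 13.67 ± 0.04 in the Aft mutant and 13.65 ± 0.03 in the wild type on the log2 scale, against 9.37 ± 0.26 in the atv mutant (SD, n = 2 each). The double mutant differed from the wild type by 0.02, with an interval of -0.32 to 0.36 (adjusted p = 0.95). The Aft mutant differed from the wild type by 0.03, with an interval of -0.31 to 0.37 (adjusted p = 0.97). In the order of CHI9 levels the step to the atv mutant alone passed between neighbours. These intervals do not exclude differences of up to about 1.29-fold. Such bright signals, and those of GluB outside the atv mutant, can be compressed on arrays whose highest intensity was 19560.1 to 21785.7. The table carries no mark of saturation.

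**Figure D1:**
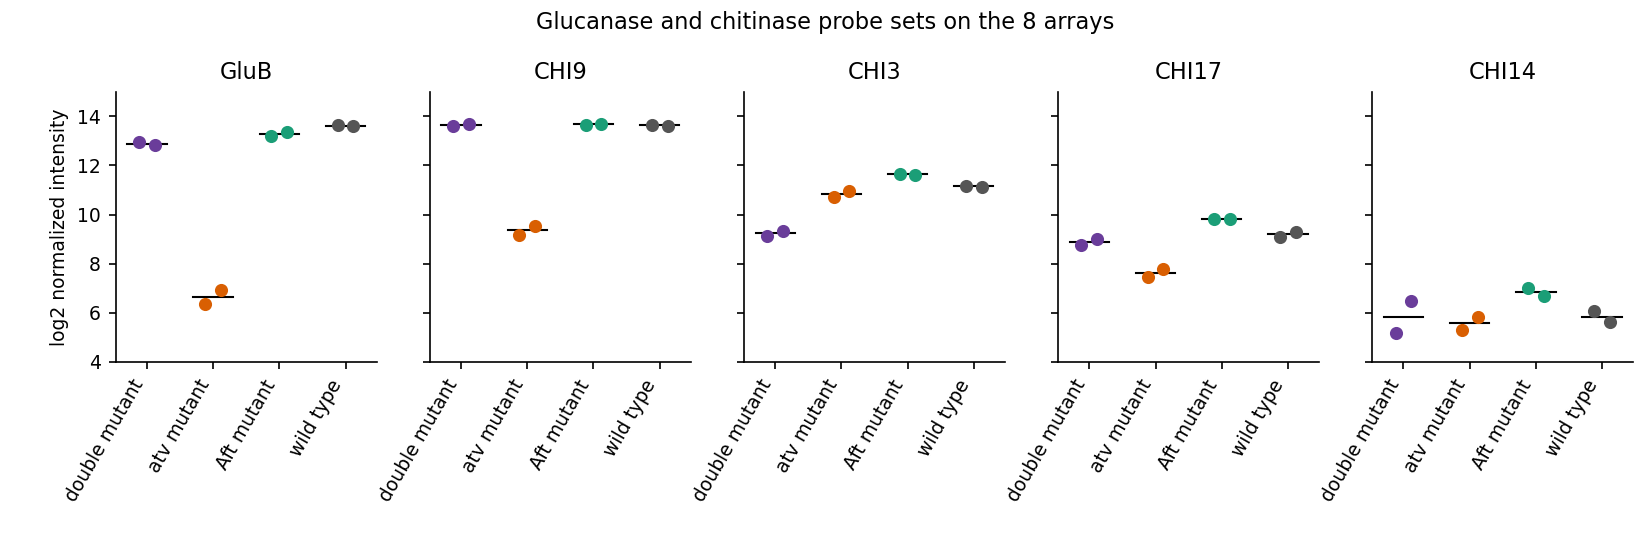
Quantile-normalized log2 intensity of GluB, CHI9, CHI3, CHI17 and CHI14, each point 1 array and each line the mean of 2 arrays, by genotype along the x axis. GluB and CHI9 were low in the atv mutant, at 6.64 and 9.37, and CHI3 was lowest in the double mutant, at 9.24.

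Within each array, the log2 level of GluB minus that of CHI9 shows whether both changed by the same amount. This difference was -0.68 and -0.87 on the double mutant arrays, -2.82 and -2.63 on the atv mutant arrays, -0.47 and -0.35 for Aft mutant fruit, and -0.03 and -0.02 on the wild type arrays. It was lower on each mutant array than on either wild type array, and lowest on those of the atv mutant. This value was not tested. Bright signals that can be compressed and the near-background GluB signal in the atv mutant limit it. Whether both genes changed by the same amount cannot be read from it.

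CHI3, the acidic chitinase, followed another order. Its deposited intensity was 563.7 and 515.8 in the double mutant, 1836.9 and 1959.2 in the atv mutant, 2904.3 and 3499.6 for Aft mutant fruit, and 2473.8 and 2270.6 in the wild type. Both double mutant arrays were below all others, and no 2 genotypes overlapped. On the log2 scale CHI3 averaged 9.24 ± 0.14 in the double mutant, 10.85 ± 0.17 in the atv mutant, 11.63 ± 0.06 in the Aft mutant and 11.16 ± 0.03 in the wild type (SD, n = 2 each).

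In double mutant peel CHI3 fell by 1.92 log2 units against the wild type (SE 0.13, adjusted p = 0.00090), which is 3.78-fold with a 95% interval of 3.05 to 4.69-fold. Against the Aft mutant it fell by 2.39 (adjusted p = 0.0013), or 5.25-fold, and against the atv mutant it fell by 1.61 (adjusted p = 0.00038), or 3.06-fold. Neither single mutant passed the test against the wild type. The atv mutant was at -0.30 (interval -0.61 to 0.01, adjusted p = 0.11) and the Aft mutant at 0.47 (interval 0.16 to 0.78, adjusted p = 0.11). In the order Aft mutant, wild type, atv mutant and double mutant, the step to the double mutant alone passed between neighbours.

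Read against all probe sets, 2 of the 3 genes passed the test in the atv mutant against the wild type, both lower, where 40.3% of all probe sets tested passed and 21.5% were lower. For the double mutant and the wild type 1 of 3 passed, CHI3, against 13.1% of all in either direction and 5.73% lower. By limma none of the 3 passed for the Aft mutant against wild type fruit, against 5.58% of all, and CHI3 was the 1 gene with an unadjusted p under 0.05. Against the Aft mutant 1 of 3 passed in the double mutant, again CHI3, against 4.10% of all in either direction and 1.58% lower. All 3 passed in the double mutant against the atv mutant, GluB and CHI9 higher and CHI3 lower, a comparison in which 44.0% of all probe sets passed, 24.7% higher and 19.3% lower. These comparisons share arrays, so their counts are not independent of each other.

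**Figure D2:**
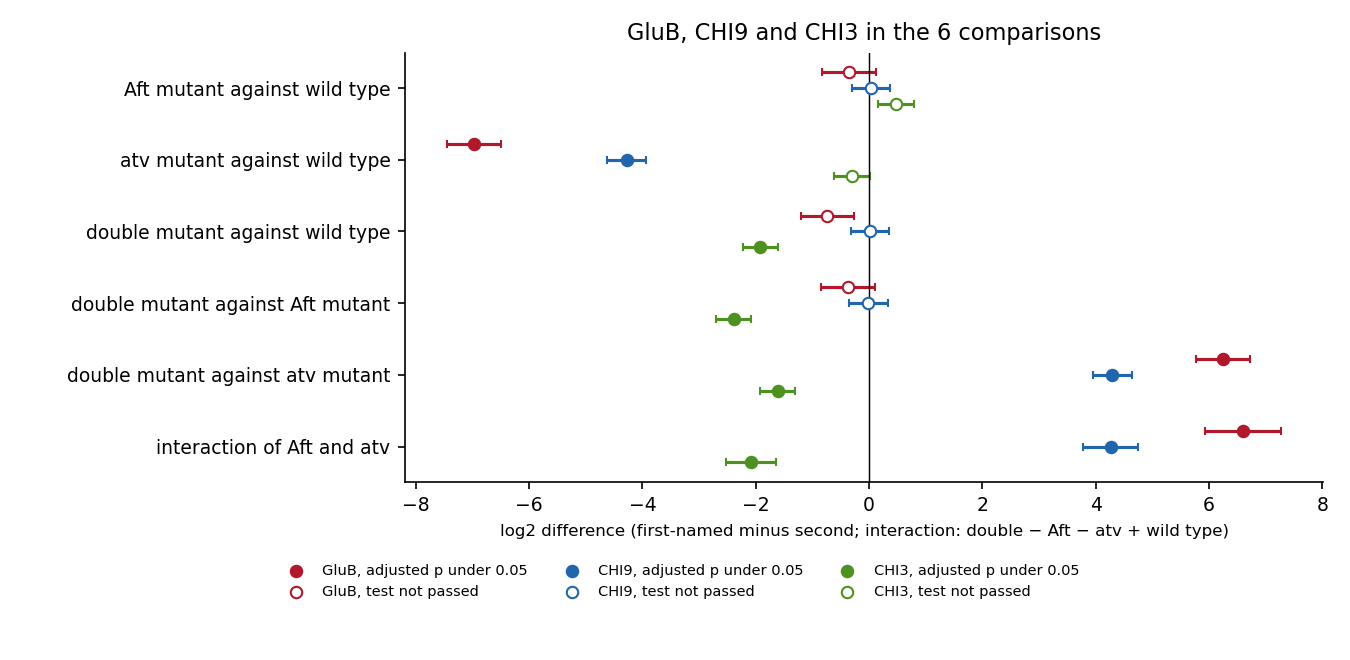
Log2 differences of GluB, CHI9 and CHI3 in the 6 comparisons, with 95% intervals from limma as bars, filled where the adjusted p was under 0.05 and open where it was not. GluB and CHI9 lie far to the left for the atv mutant against the wild type (-6.98 and -4.28) and far to the right for the double mutant against the atv mutant (6.24 and 4.29), while CHI3 is negative in each comparison that involves the double mutant.

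The interaction compares the difference that went with Aft in atv fruit with the one in fruit without atv. All 3 genes passed this test, 2 positive and 1 negative, against 24.2% of all probe sets, 12.5% positive and 11.7% negative. For GluB the single-mutant differences from the wild type summed to -7.34 on the log2 scale, whereas the double mutant itself was at -0.73, a gap of 6.60 (SE 0.27, adjusted p = 0.00020). For CHI9 the sum was -4.25 and the double mutant was at 0.02, a gap of 4.26 (SE 0.19, adjusted p = 0.00023). For CHI3 the gap had the opposite sign. Its single-mutant differences summed to 0.17 and the double mutant was at -1.92, a gap of -2.09 (SE 0.18, adjusted p = 0.0012).

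Put by background, Aft went with a GluB difference of 6.24 in atv fruit and of -0.36 (not passed) in fruit without atv. The atv alleles went with a difference of -0.38 (not passed) in Aft fruit and of -6.98 in fruit without Aft. For CHI3, Aft went with -1.61 in atv fruit and 0.47 (not passed) in fruit without atv.

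**Figure D3:**
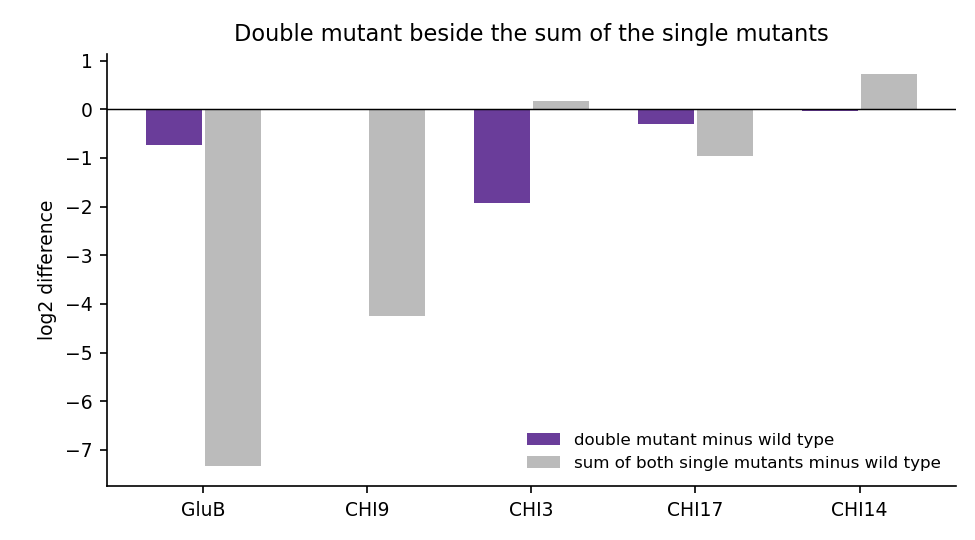
Log2 difference from the wild type in the double mutant (purple) beside the sum of the differences of both single mutants (grey) for GluB, CHI9, CHI3, CHI17 and CHI14. The bars are far apart for GluB (-0.73 and -7.34) and CHI9 (0.02 and -4.25), and for CHI3 the double mutant alone is low (-1.92 and 0.17).

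The array's annotation names 2 further chitinases, CHI17 and CHI14. CHI17, the acidic chitinase whose gene lies next to CHI3 in the current gene table, had deposited intensities of 438.3 and 415 in the double mutant, 229 and 226.7 in the atv mutant, 748.2 and 1060.7 for Aft mutant fruit, and 577.1 and 629.8 in the wild type. Its lowest arrays were those of the atv mutant, and no 2 genotypes overlapped on the log2 scale. In atv mutant peel CHI17 fell by 1.58 against the wild type (SE 0.16, adjusted p = 0.0010) and was 1.27 higher in the double mutant than in the atv mutant (adjusted p = 0.0019). It fell by 0.92 in the double mutant against the Aft mutant (adjusted p = 0.041), which no longer passed on the scale as deposited, with no filter on low values, in a fit of these groups alone or without any 1 of the double mutant, Aft mutant or wild type arrays (adjusted p from 0.018 to 0.16 over all alternatives). Its interaction of 0.66 did not pass (adjusted p = 0.089), but passed without atv mutant replicate 2 (adjusted p = 0.041) and with the replicate number as a block (adjusted p = 0.048).

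CHI17 had its lowest level in the atv mutant, as GluB and CHI9 did, and its neighbour CHI3 had its lowest in the double mutant. Signal that one chitinase's probes take from a close relative was not tested. CHI14, a basic chitinase like CHI9, was dim, with intensities of 31 and 72.6 in the double mutant, 53.5 and 59.9 in the atv mutant, 92.6 and 118.5 for Aft mutant fruit, and 70.3 and 46 in the wild type. It did not pass in any of the 6 comparisons (lowest adjusted p = 0.23), and its double mutant arrays, at 5.15 and 6.46 on the log2 scale, spanned both wild type arrays.

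Other pathogenesis-related and wound proteins moved in both directions in the atv mutant. Of 16 such genes tested, 1 probe set each, 4 rose, 6 fell and 6 did not pass against the wild type (median -0.51, against -0.11 over all probe sets tested). In that comparison 40.3% of all probe sets passed and 21.5% were lower. NP24-I, an osmotin-like protein, fell to a log2 level of 4.50 in the atv mutant, against 13.25 in the wild type (adjusted p = 9.8e-07). ER1, an ethylene-responsive proteinase inhibitor, fell to 4.09 in the atv mutant, against 12.50 in the wild type (adjusted p = 2.2e-06). Both atv mutant levels lie just above the highest seed or trichome marker mean in this peel, 4.01 for MAN1 in the double mutant. They are still near background, so no fold is given for them. The pathogenesis-related gene PR1b1 rose by 3.24 (adjusted p = 0.00011). In double mutant peel NP24-I was at 12.69 and ER1 at 11.98, both higher than in the atv mutant (adjusted p = 1.4e-06 and 3.2e-06), as GluB and CHI9 were.

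Between the double mutant and the wild type, 6 of these 16 genes rose, 4 fell and 6 did not pass. Their median was 0.35, against 0.04 over all, and 13.1% of all probe sets passed. CEVI57 fell by 4.51 (adjusted p = 0.00025), to a log2 level of 5.34 in the double mutant. That level is dim, so the size of the fall depends on how background was removed. The gene loxD, a lipoxygenase of the jasmonate pathway, rose by 1.90 and PR1b1 rose by 1.69. In the Aft mutant 3 rose and 2 fell against the wild type (median 0.31, against 0.00 over all), where 5.58% of all passed. CEVI57 was at -3.95 (adjusted p = 0.00057), with a dim log2 level of 5.90 in the Aft mutant. A proteinase inhibitor that wounding induces, PIIF (LOC543954), was at 2.69, with a dim level of 5.33 in the wild type. PR1b1 was at 1.64. PR1b1 was thus higher than in the wild type in each mutant, while GluB and CHI9 passed against the wild type in the atv mutant alone. Between the double mutant and the Aft mutant 2 of the 16 rose and 1 fell, where 4.10% of all passed. The median was -0.23, against 0.02 over all, and PR-P2, the gene that fell, was at -0.85 (adjusted p = 0.018). Between the double and atv mutants 6 rose and 4 fell (median 0.78, against 0.10 over all), where 44.0% of all passed. For the interaction 3 were higher and 4 lower (median 0.10 in the list and over all), where 24.2% of all passed.

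Since ethylene induces the basic chitinase and glucanase, its synthesis, receptor and response genes were listed too. Of 38 such genes with a probe set 36 were tested. In the atv mutant against the wild type 7 rose, 23 fell and 6 did not pass (median -0.67, against -0.11 over all), where 40.3% of all probe sets passed and 21.5% were lower. The response factor ERF4 fell by 3.95 (adjusted p = 3.1e-05), to a log2 level of 6.63 in the atv mutant. That is as dim as GluB there, so the size depends on how background was removed. The ethylene-forming oxidase ACO5 fell to a log2 level of 4.14 in the atv mutant, against 7.90 in the wild type, whereas the oxidase ACO4 rose by 1.89. Between the double and atv mutants 22 rose, 5 fell and 9 did not pass (median 0.77, against 0.10 over all), where 24.7% of all were higher. ERF4 stood 4.78 above its dim level in the atv mutant, and ACO5 was at 9.43 in the double mutant, against a level near background in the atv mutant. Set against the wild type, the double mutant had 9 that rose and 4 that fell (median 0.10, against 0.04 over all), where 13.1% of all passed. For the interaction 19 were higher and 3 lower (median 0.82, against 0.10 over all), where 12.5% of all were higher. Between the double and Aft mutants 5 rose and none fell by limma (median 0.11, against 0.02 over all), where 4.10% of all passed. Under the alternatives 1 to 11 rose and up to 1 fell. The Aft mutant had 1 rise and 3 falls against the wild type, where 5.58% of all passed. The falls were ACO6 (-3.57), ACO4 (-2.42) and the ripening regulator RIN, at 5.14 in the Aft mutant, against 8.63 in the wild type. RIN was also lower than in the wild type in the atv mutant, at 3.30, near background, and in the double mutant, at 6.36.

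**Figure D4:**
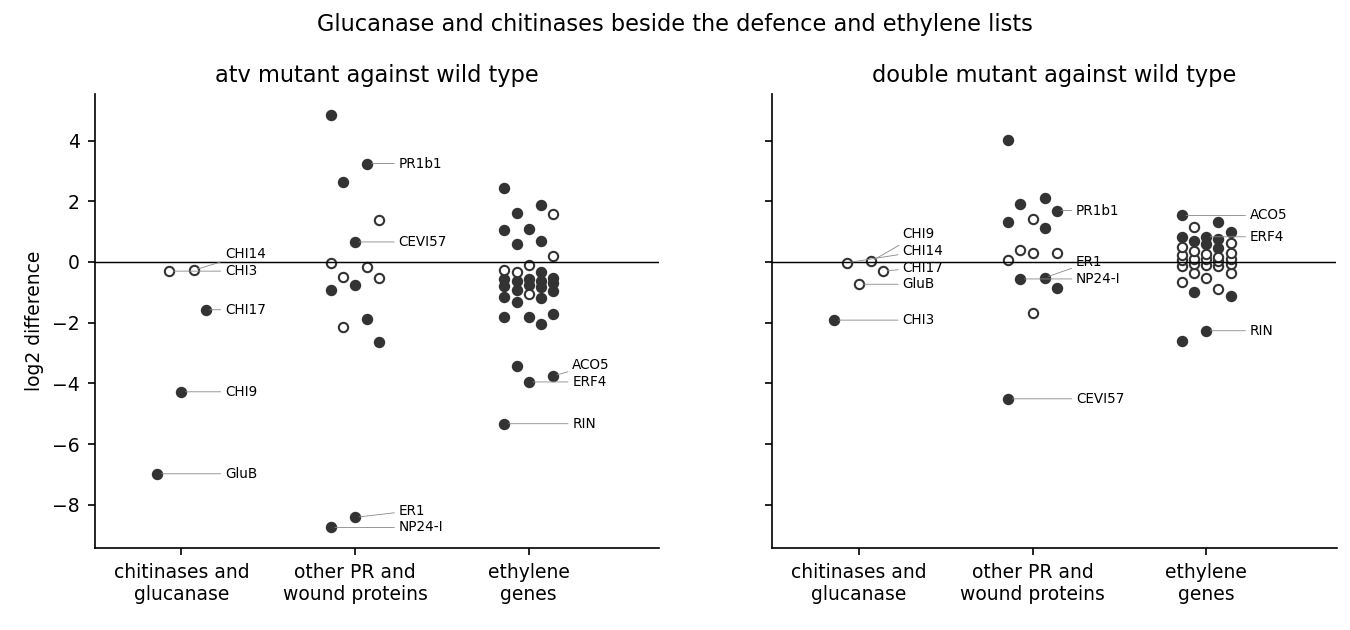
Log2 differences from the wild type for the atv mutant (left panel) and the double mutant (right panel), each point 1 gene of the chitinase and glucanase group, of the other pathogenesis-related (PR) and wound proteins or of the ethylene genes, filled where the adjusted p was under 0.05. In the left panel GluB (-6.98) and CHI9 (-4.28) lie low together with NP24-I and ER1, whose atv mutant levels were near background, and PR1b1 (3.24) lies high.

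Profiles over the 8 arrays were compared by Pearson's r with 621 named genes tested, as a description. The genes most like GluB were EIL2, an EIN3-like factor of the ethylene pathway, ME2, NP24-I, ER1 and PT1, a phosphate transporter, with r between 0.996 and 0.999. Those most like CHI9 were NP24-I, ER1, ME2, GluB and EIL2, with r between 0.995 and 0.997. These values lean on the atv mutant arrays. Over the other 6 arrays r lay between 0.78 and 0.98 for the genes most like GluB, and between -0.24 and -0.14 for those most like CHI9. GluB and CHI9 themselves had r = 0.995 over 8 arrays and -0.17 over those 6.

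A high r does not mean a difference of the same size. In the atv mutant against the wild type EIL2 was at -1.31, ME2 at -2.34 and PT1 at -3.36 on the log2 scale, and GluB at -6.98. The genes most like CHI3 were ODD, a dioxygenase, TBG1, a beta-galactosidase, HPL, a hydroperoxide lyase, DIG3 and pip1. Their r was between 0.88 and 0.99 over 8 arrays and between 0.881 and 0.999 over the 6 without the atv mutant. Those 6 keep the double mutant arrays, where CHI3 was lowest, so they cannot show whether this likeness rests on the double mutant. That was not tested. The double mutant differences of these genes from the wild type lay between -4.25 (ODD) and -0.54 (HPL), values that their choice by likeness to CHI3 favours. With Aft alone, CHI3 differed from the wild type by 0.47. ODD differed by 0.94, TBG1 by 0.55, HPL by -0.06, DIG3 by -0.02 and pip1 by -0.18.

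**Figure D5:**
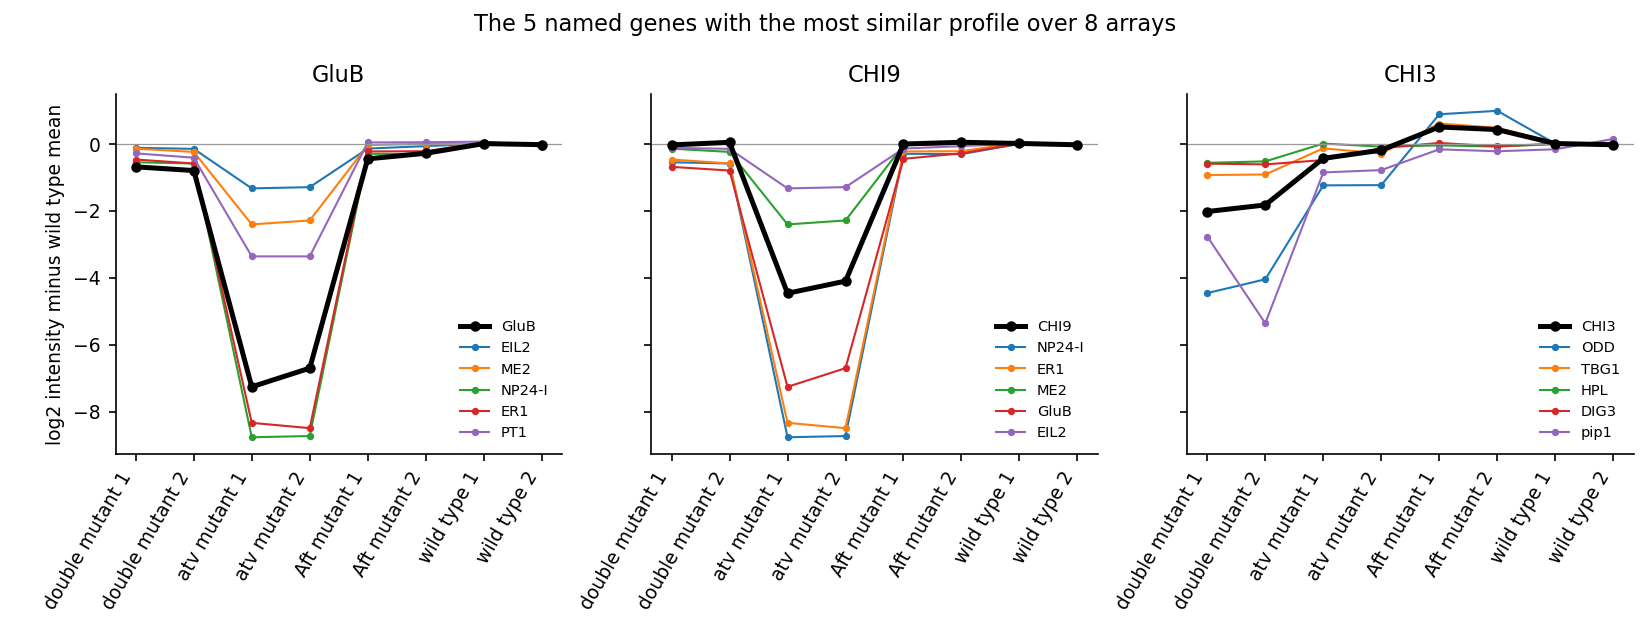
Log2 intensity minus the wild type mean on the 8 arrays for GluB, CHI9 and CHI3 (black) and, for each, the 5 named genes with the highest r (colours), lines joining arrays only to guide the eye. The lines dip on the atv mutant arrays for GluB and CHI9 and on the double mutant arrays for CHI3.

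Markers of cell types were read beside these results. LE16 and TSW12, lipid transfer proteins taken as epidermal markers of the peel, were the only genes of the peel list with a probe set. Both were present in every genotype. Their summed deposited intensity was 7984.3 to 10026.8 in the double mutant, 15954 to 16333.1 in the atv mutant, 3819.5 to 5556.2 in the Aft mutant and 4219.6 to 4692.1 in the wild type. LE16 rose by 1.87 and TSW12 by 1.90 in the atv mutant, where GluB and CHI9 fell, and by 1.16 and 0.96 in the double mutant. TPRP-F1, a cell wall protein gene, was the 1 gene of the vascular list with a probe set, so vascular content cannot be read from it. It was lower than in the wild type in the double mutant (-1.62), the atv mutant (-1.93) and the Aft mutant (-1.81). The seed markers MAN1 and MAN2 together stayed at 31.1 or less and the trichome marker MTS1 at 16.9 or less on all arrays, near background. The part of epidermal and vascular cell content in the results for GluB, CHI9 and CHI3 was not tested.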

How the data were processed

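The authors deposited 1 linear intensity per probe set and array, and per the submitters' processing notes GCRMA was used, with no version given. Any further scaling by the submitters is not known. As array medians differed, the 8 arrays were brought to 1 distribution by quantile normalization, with a floor of 1 before log2. The 171 control probe sets were then dropped, and tests were run on the 9493 others that reached a log2 value of 4 on 2 or more arrays. Group means over all 8 arrays were fitted with limma 3.58.1 in R 4.3.3, with 4 residual and 1.77 prior degrees of freedom. Tests were two-sided, adjusted by Benjamini and Hochberg over all probe sets tested, with a threshold of 0.05, and the fit was tested on simulated data.

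The 3 members, the gene lists, the normalization and the alternatives were chosen with earlier results of these data known. Lists were matched by symbol or synonym to the 909 probe sets with a gene symbol, using the brightest probe set of each gene. Named genes are the members, other chitinases, up to 3 genes per list and comparison by p, and the 5 named genes with the highest r for each member. By the same replicate number, deviations of groups correlated at -0.04 to 0.18, so the numbers were not taken to pair samples. Alternatives were the deposited scale, median scaling, a floor of 16, no filter, a replicate block, an intensity trend with a robust prior, fits of fewer groups and each array left out.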

Additional observations from a re-analysis of the deposited data

Results flagged for a closer look

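For all 3 genes what went with Aft differed between atv fruit and fruit without atv, by the interaction test in limma. This difference was 6.60 for GluB (adjusted p = 0.00020), 4.26 for CHI9 (adjusted p = 0.00023) and -2.09 for CHI3 (adjusted p = 0.0012) on the log2 scale. A difference in line background would enter it too. For GluB and CHI9 it rests mainly on the atv mutant arrays, at -6.98 and -4.28 against the wild type. In each alternative that gave a value, 14 per gene, the 3 differences kept their sign and passed. Groups of 2 arrays allow no check for single outlying samples.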

How the results depend on the processing

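The 18 differences of the 3 genes gave 276 values under the alternatives. Of these 270 kept their side of the threshold, no called value turned its sign, and no call was lost. The exception was GluB in the double mutant against the wild type, which did not pass with all arrays (-0.73) and passed in 6 alternatives. It was -0.73 with a floor of 16 (adjusted p = 0.048), -0.73 with an intensity trend and robust prior (adjusted p = 0.016), -0.73 in a fit of these 2 groups alone (adjusted p = 0.020) and -0.73 in a fit without either atv mutant array (adjusted p = 0.012). It also passed without atv mutant replicate 1 or atv mutant replicate 2, and over all arrays left out in turn it ran from -0.79 to -0.67. With the replicate number as a block GluB was at -6.98 in the atv mutant against the wild type, and the block changed no call of these 3 genes.

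The number of probe sets called in all moved more. It ran from 205 to 709 for the Aft mutant, from 1987 to 4148 for the atv mutant and from 355 to 2269 for the double mutant, each against the wild type. It ran from 76 to 903 for the double mutant against the Aft mutant, from 2252 to 4518 for the double mutant against the atv mutant and from 872 to 2726 for the interaction. Of the ethylene genes, those higher in the double mutant against the wild type ran from 1 to 11, and those lower in the atv mutant against the wild type from 17 to 24. The causes of these moves were not tested. Signal near the array background limits CHI14, DFR and PIIF in the wild type, CEVI57 and RIN in the Aft and double mutants, and TPRP-F1 in each mutant. In the atv mutant it limits GluB, ERF4, NP24-I, ER1, ACO5 and RIN, and the list is not complete.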
